A study of Mus musculus with 2 samples.

Results

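The interleukin-1 (IL-1) family and its receptors were described here by 10 of the 32285 genes in the count files. They were taken by symbol: the ligands Il1a, Il1b, Il18 and Il33, the antagonist Il1rn, the signalling receptors Il1r1, Il1rl1 and Il18r1, the shared co-receptor Il1rap and the decoy receptor Il1r2. All 10 symbols were found in both libraries. The libraries were droplet-based 3′ scRNA-Seq of mouse lung, in which each captured RNA molecule is counted through a unique molecular identifier (UMI). The Cebpa fl/fl library, called the control library from here on, came from mice with floxed Cebpa alleles, and the Cebpa ΔSftpc library from mice with the same floxed alleles and Sftpc-CreERT2, which deletes Cebpa after tamoxifen in cells that express Sftpc, mainly alveolar type 2 (AT2) cells. Tamoxifen was given as 5 daily injections of 75 mg/kg, with a second, weekly round for late analyses, and lungs of both genotypes were taken 26 weeks after the first injection. The mice were age matched on mixed backgrounds, and the age given for mice used in experiments was 3 months. The methods give 3 mice per genotype, but barcodes carry no mark of the mouse, so each genotype was 1 library. No difference between the genotypes has a replicate check in these counts. No test was run, and every interval below is an exact 95% interval that covers counting error only. UMIs of 1 cell are not independent of each other, so these intervals are the narrowest that the counts allow.

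IL-1 family ligands are alarm signals of tissues and phagocytes. IL-1α and IL-1β both bind IL1R1, which signals together with IL1RAP, while the antagonist encoded by Il1rn occupies IL1R1 without signalling and the decoy IL1R2 binds the ligands without passing a signal on. IL-33 signals through ST2, the product of Il1rl1, with the same IL1RAP chain, and IL-18 through IL18R1 with a chain of its own, IL18RAP. IL-1β and IL-18 are made as precursors that are cut by caspase-1 in inflammasomes, whereas IL-33 is held in the nucleus of barrier cells. Transcript counts therefore show where a precursor or receptor can be made, and not how much active protein was present.

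In the GRCm38 annotation, 4 of the 5 receptor genes lie in 427 kb of chromosome 1, in the order Il1r2 (40074079 to 40125231), Il1r1 (40225080 to 40317257), Il1rl1 (40429570 to 40465415) and Il18r1 (40465552 to 40500854), all on the plus strand. Il1a (129299610 to 129309972) and Il1b (129364570 to 129371139) are neighbours on the minus strand of chromosome 2, and Il1rn (24336853 to 24351494, plus strand) is on the same chromosome. Il18 (50554827 to 50581840) is on the plus strand of chromosome 9, Il33 (29925114 to 29960718) on that of chromosome 19 and Il1rap (26581704 to 26730117) on that of chromosome 16. Neighbouring genes differed in the cells that held their transcripts, as the levels below show for Il1a and Il1b. Il1rl1 and Il18r1 also differed in part, although both were high in basophils or mast cells. To show the neighbours Il1a and Il1b and the other precursor ligand Il18 at the level of sequence, the 250 bases before their RefSeq start are printed 5′ to 3′ on the strand of the gene (GRCm38.p6). Capitals mark matches to the 4 motifs searched on both strands, the TATA box TATAAA, the PU.1 core GAGGAA, the C/EBP core TTGCNNAA and the NF-κB consensus.
Il1b, chr2:129371140-129371389, minus strand: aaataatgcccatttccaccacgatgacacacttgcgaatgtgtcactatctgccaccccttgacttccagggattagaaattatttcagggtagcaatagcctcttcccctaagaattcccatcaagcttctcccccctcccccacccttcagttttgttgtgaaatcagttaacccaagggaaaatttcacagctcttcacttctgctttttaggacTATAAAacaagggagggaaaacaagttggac
Il1a, chr2:129309973-129310222, minus strand: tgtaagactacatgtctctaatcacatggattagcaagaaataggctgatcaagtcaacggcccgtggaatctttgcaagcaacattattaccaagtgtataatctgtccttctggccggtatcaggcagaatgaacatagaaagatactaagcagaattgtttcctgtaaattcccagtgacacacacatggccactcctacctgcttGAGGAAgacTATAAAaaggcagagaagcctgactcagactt
Il18, chr9:50554450-50554699, plus strand: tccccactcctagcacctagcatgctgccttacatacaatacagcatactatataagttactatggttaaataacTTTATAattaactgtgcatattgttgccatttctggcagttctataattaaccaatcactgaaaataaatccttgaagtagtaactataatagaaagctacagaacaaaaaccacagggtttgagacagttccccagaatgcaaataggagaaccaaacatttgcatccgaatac
The Il1b window held TATAAA from position -31 to -26, counted from the start, and the Il1a window held it from -32 to -27, with GAGGAA from -41 to -36. In the Il18 window a TATA-box match was on the opposite strand, read as TTTATA from -175 to -170. Over 32851 windows of the same length, TATAAA was present in 12.4%, GAGGAA in 23.3%, TTGCNNAA in 9.56% and the NF-κB consensus in 7.25%. These shares count a match at any position on either strand, and how common a match is at a given position was not counted. The matches are given as a description of the letters.

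After barcodes with fewer than 200 genes or more than 20% mitochondrial counts were left out, 11487 cells with 68802017 UMIs (median 4835 per cell) remained in the control library and 13238 cells with 64452208 UMIs (median 2607) in the Cebpa ΔSftpc library. Cells were placed in 23 types by the raw counts of marker genes, none of which is a member of the family, and the endothelial and fibroblast types were divided into 7 named subtypes. Leukocyte types numbered 140 cells (1.22%) in the control and 2076 cells (15.7%) in the Cebpa ΔSftpc library, so levels in leukocytes come mainly from the latter. Whether that difference arose in the lungs or in how cells were obtained cannot be told apart with 1 library per genotype. The type called basophils or mast cells had Cpa3 and Ms4a2 among its leading genes in both libraries. Mcpt4 was among them only in the control library, and Mcpt8 only in the Cebpa ΔSftpc library. How basophils and mast cells were mixed in each library was not resolved, which limits every comparison of this type below. Depth also differed by type, with a median of 20980 UMIs per AT2 cell in the control and 1868 UMIs in the Cebpa ΔSftpc library. The markers of several types were found together in 389 and 2138 cells, which were kept out of all types. The libraries shared 45 barcodes, of which 16 were in the same type in both. Cebpa itself was at 156 counts per 1000000 UMIs (CPM; 148 to 164) in control AT2 cells and at 123 CPM (106 to 142) in Cebpa ΔSftpc AT2 cells, with a log2 ratio of -0.34 (-0.57 to -0.12), while endothelial cells had 11.2 and 14.5 CPM. Which part of the transcript the deletion removes, and so whether a 3′ tag can report it, is not given in the sources used here.

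The sources of the 4 ligands were different cell types. Il1a was highest in aerocytes, the capillary cells of gas exchange, in both libraries, and Il33 was in AT2 cells, adventitial fibroblasts and venous endothelium of both libraries and in lymphatic endothelium of the control library. Il33 was also counted in the few mesothelial cells of both libraries. Il1b was in neutrophils and monocytes. Il18 was in ciliated cells of both libraries and in alveolar macrophages of the Cebpa ΔSftpc library, a type with only 4 cells in the control library. Among the receptors, Il1r1 lay in fibroblasts and endothelium, Il18r1 in alveolar and ciliated epithelium, mesothelial cells, basophils or mast cells, T cells and NK cells, Il1rl1 in basophils or mast cells, and Il1r2 in neutrophils of the Cebpa ΔSftpc library.

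**Figure D1:**
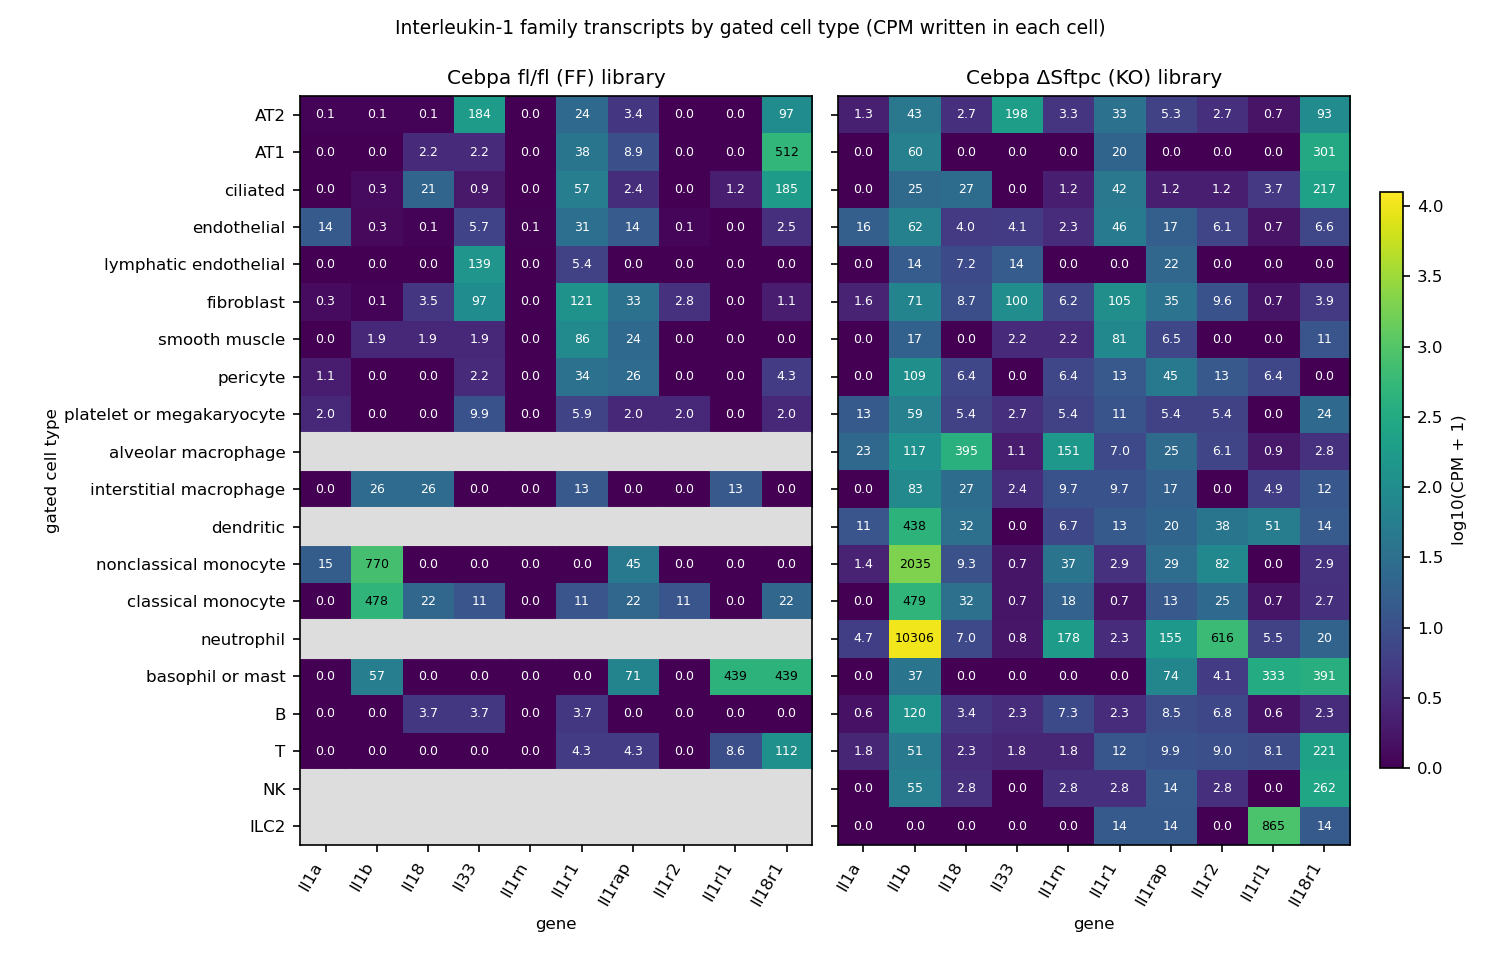
Level of the 10 genes (columns) in the gated cell types (rows) in the Cebpa fl/fl (left) and Cebpa ΔSftpc (right) library. Mesothelial, airway secretory and erythroid cells are not drawn. Colour is log10(CPM + 1), the CPM is written in each field, and grey rows have under 10 cells. Il1b in neutrophils of the Cebpa ΔSftpc library, at 10306 CPM, is the highest field, and Il33 in AT2 cells stands at 184 and 198 CPM.

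Over the whole libraries, Il1b had 249 UMIs (3.62 CPM) in the control and 26772 UMIs (415 CPM) in the Cebpa ΔSftpc library, 115-fold more. Il1rn had 3 and 1326 UMIs, Il18 136 and 2384, Il1r2 33 and 1657, and Il1rl1 40 and 316. Il33 had fewer, with 2939 UMIs (42.7 CPM) and 963 UMIs (14.9 CPM), 2.86-fold lower in the Cebpa ΔSftpc library. On the log2 scale the ratios were 6.84 (6.66 to 7.03) for Il1b, 8.88 (7.33 to 11.16) for Il1rn, 4.23 (3.98 to 4.49) for Il18, 5.74 (5.25 to 6.29) for Il1r2, 3.08 (2.6 to 3.59) for Il1rl1 and -1.52 (-1.62 to -1.41) for Il33. The other members moved less: 0.48 (0.32 to 0.64) for Il1a, 0.51 (0.39 to 0.63) for Il1rap, -0.19 (-0.27 to -0.11) for Il1r1 and -0.25 (-0.34 to -0.15) for Il18r1.

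A ratio was counted as past 2-fold where its whole interval was beyond 2-fold. By that rule 5 of 10 members were higher (Il1b, Il18, Il1rn, Il1r2 and Il1rl1) and 1 was lower (Il33), where 7.84% of 16271 genes with at least 50 UMIs were higher and 5.66% lower. The median log2 ratio was 1.79 over the members and -0.08 over all genes tested. In endothelial cells 5 of 9 members tested were higher (Il1b, Il18, Il1rn, Il1r2 and Il18r1) and 0 lower, against 4.37% and 0.24% of 13741 genes. In fibroblasts 2 of 6 were higher (Il1b and Il1r2) and 0 lower, against 1.37% and 0.0952% of 11557 genes. Leukocyte genes moved with both counts, and their part in them was not tested: the neutrophil gene S100a8 was at 2.08 and 266 CPM in endothelial cells and at 1 and 318 CPM in fibroblasts, and the macrophage gene Chil3 at 0.526 and 126 CPM and at 0.223 and 128 CPM. The whole-library ratios hold the shift in leukocyte share as well as any change within a type, and without the leukocyte types and the cells of no or several types the ratio of Il1r1 was 0.21, with the opposite sign.

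**Figure D2:**
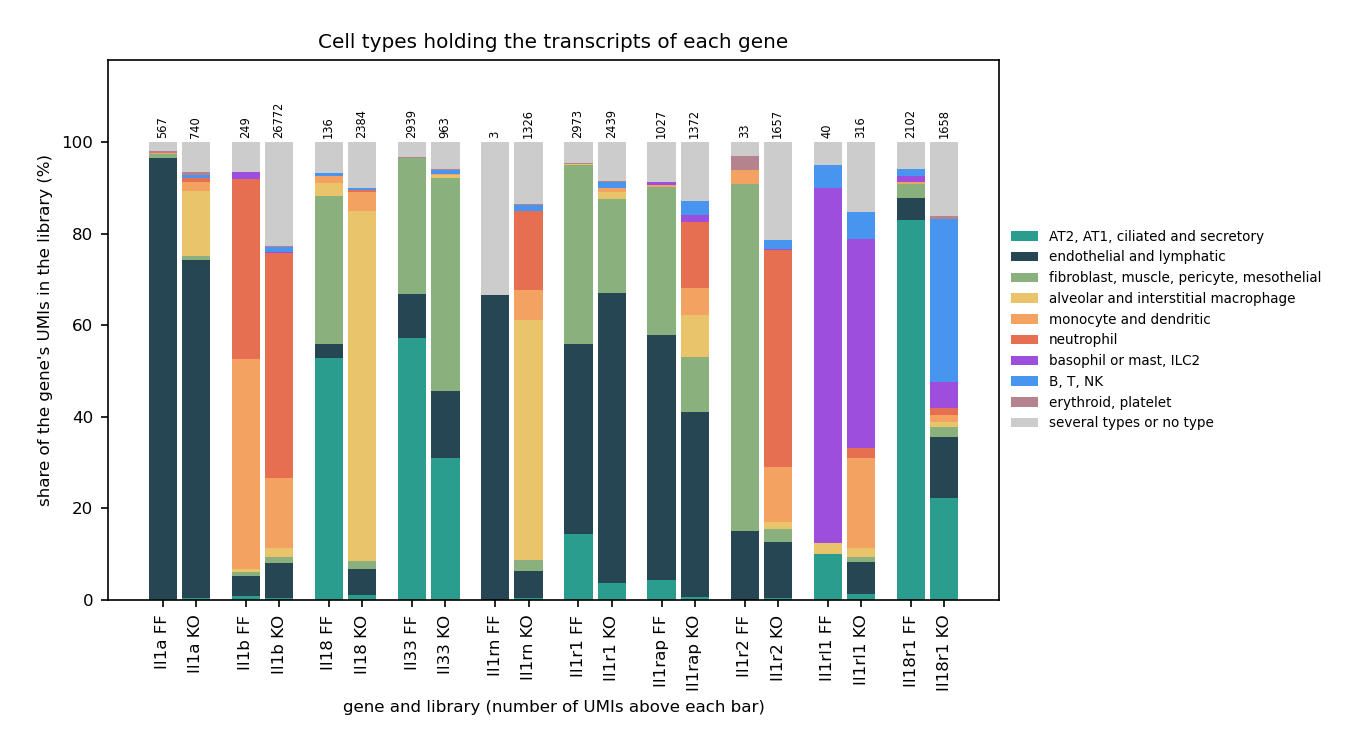
Share of each gene's UMIs (vertical axis, percent) held by groups of cell types, for the Cebpa fl/fl (FF) and Cebpa ΔSftpc (KO) libraries, with the number of UMIs above each bar. Endothelial types hold the largest part of Il1a in both, and Il18 lies mainly in the epithelial group in FF and in the macrophage group in KO. The Il18 shares stand beside 4 alveolar macrophages in FF and 516 in KO.

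Il1b was concentrated in neutrophils of the Cebpa ΔSftpc library. These 327 cells held 13191 UMIs, 49.3% of all its Il1b UMIs, at 10306 CPM (10130 to 10483). Of these cells, 98.5% had a UMI (median depth 3938 UMIs), against 11% of B cells (5549 UMIs). Of the 293 neutrophils with at least 1000 UMIs, 98.0% still did when each was thinned to 1000 UMIs. The control library had 3 neutrophils with 98 Il1b UMIs, of which 88 were in 1 cell, so its 11536 CPM says little beyond that cell. Single neutrophils of the Cebpa ΔSftpc library spanned 2352 CPM at the 10th percentile, 8733 CPM at the median and 17602 CPM at the 90th percentile. In a split chosen after the values were seen, the 13 of them with at least 10 UMIs of the chemokines Ccl3 and Ccl4 had 11659 CPM (10898 to 12460), and the other 314 had 10222 CPM (10042 to 10404).

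Monocytes came next. Nonclassical monocytes, which patrol the vessel wall, had 2035 CPM (2840 UMIs) in 178 Cebpa ΔSftpc cells and 770 CPM (573 to 1012; 51 UMIs) in 10 control cells. Neutrophil genes moved with the first of these values: Retnlg stood at 398 and S100a8 at 3898 CPM in these monocytes, and their part in the Il1b level was not tested. They had 5.12 Il1b UMIs per Retnlg UMI, and neutrophils had 0.889. Retnlg is a marker of the neutrophil gate, so this comparison is partly set by the gate. Per UMI of S100a8, which no gate used, the values were 0.522 and 0.142. Classical monocytes stood at 478 CPM (347 to 642; 44 UMIs, 24 of them in 1 of 10 cells) and 479 CPM (445 to 516; 165 cells). Retnlg was at 88.6 and S100a8 at 924 CPM in those of the Cebpa ΔSftpc library, and their part was not tested. Dendritic cells stood at 395 CPM (19 UMIs, all in 1 of 5 cells) and 438 CPM (402 to 478; 524 UMIs, 91 of them in 1 of 78 cells). That last type included 1 cell with all 1449 Jchain UMIs, an immunoglobulin chain gene of plasma cells, and without its deepest cell Il1b was at 429 CPM. Alveolar macrophages of the Cebpa ΔSftpc library had 117 CPM (107 to 127), with 79 of their 536 UMIs in 1 cell. Retnlg stood at 55.1 and S100a8 at 446 CPM in them, and their part in the Il1b level was not tested. In the same library interstitial macrophages had 82.7 CPM and basophils or mast cells 37.0 CPM. The last 2 are inside the range, given next, of the types outside the leukocytes. The top of that range was 36 pericytes with 17 UMIs, 9 of them in 1 cell. In the control library interstitial macrophages had 25.7 CPM (2 UMIs) and basophils or mast cells 56.6 CPM (4 UMIs, all in 1 cell). Types outside the leukocytes reached at most 1.87 CPM there. Whether alveolar macrophages, interstitial macrophages and basophils or mast cells express Il1b was not tested.

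Il1b was also counted in types outside the leukocytes of the Cebpa ΔSftpc library. Over 10 epithelial, endothelial, mesenchymal, erythroid and platelet types it ranged from 3.71 to 109 CPM with a median of 51.2 CPM, where 9 such types of the control library ranged from 0 to 1.87 CPM. Other leukocyte genes were spread over these types of the Cebpa ΔSftpc library too: Retnlg, a neutrophil gene, was at 3.71 to 39.3 CPM, S100a8 at 26 to 318 CPM and the macrophage gene Chil3 at 77.9 to 211 CPM. In the control library these 3 genes reached at most 1.98, 5.93 and 2.23 CPM. The authors report S100a8 and S100a9 as the most raised genes of AT2 cells in Cebpa ΔSftpc mice, a reading that was not tested here. Il1b UMIs per Retnlg UMI were 1.81 in endothelial cells, 1.80 in fibroblasts and 1.51 in AT2 cells, beside 0.889 in neutrophils, which were gated partly by Retnlg. Per S100a8 UMI the values were 0.232, 0.222 and 0.262, beside 0.142 in neutrophils. Il1b levels of this size are not read here as expression by these types, which covers the log2 ratio of 7.81 in endothelial cells (11 and 2058 UMIs). The origin of these UMIs, including the part of free RNA in them, was not tested. B cells had 0 UMIs in 43 cells and 213 UMIs (120 CPM) in 299 cells, with 84 of these UMIs in 1 cell. Against a floor of 3 counts the log2 ratio was 3.45 (1.89 to 5.74), and under a stricter gate, with 43.0 CPM, it was 1.91. Cells with markers of several types held 5982 Il1b UMIs at 871 CPM, 22.3% of the gene's UMIs.

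**Figure D3:**
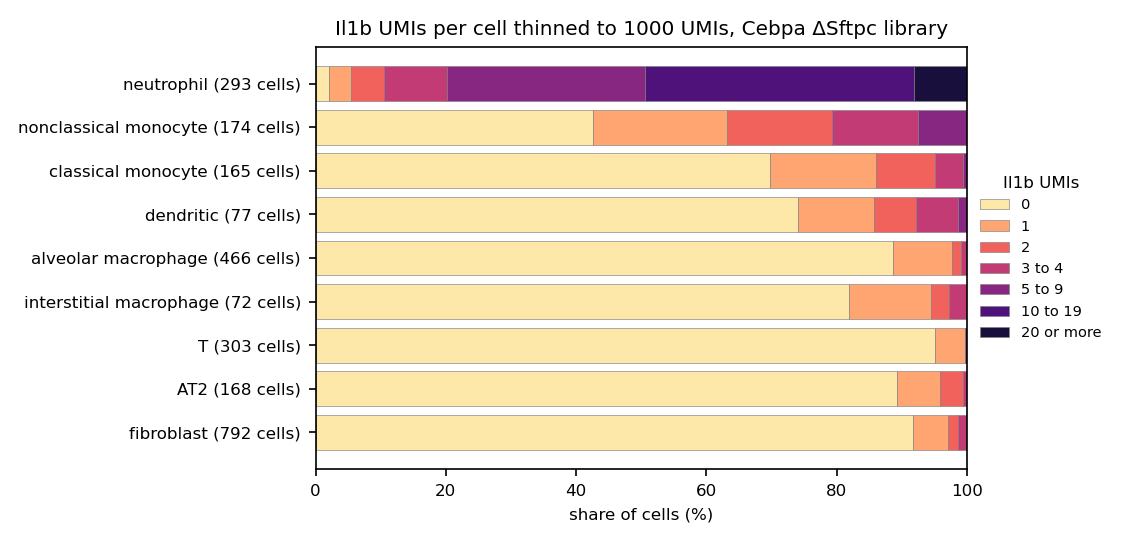
Share of cells (horizontal axis, percent) of the Cebpa ΔSftpc library by number of Il1b UMIs after each cell was thinned to 1000 UMIs. Cells under 1000 UMIs are left out. Of the neutrophils 98.0% had a UMI, of nonclassical monocytes 57.5%, and of AT2 cells and fibroblasts 10.7% and 8.33%.

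Il1a, the relative of Il1b that is active without processing, had a different source. Endothelial cells held 96.5% of its 567 UMIs in the control and 73.8% of its 740 UMIs in the Cebpa ΔSftpc library. Within the endothelium it was in aerocytes, at 55.2 CPM (50.3 to 60.4; 475 UMIs in 1341 cells) and 49.8 CPM (45.3 to 54.7; 448 UMIs in 1828 cells). The log2 ratio was -0.15 (-0.34 to 0.04) in aerocytes and 0.26 (0.08 to 0.43) in endothelial cells as a whole, so in aerocytes a difference between the libraries was not detectable at this depth. General capillary cells, their neighbours in the same vessels, were at 0.855 CPM (0.507 to 1.35) and 1.90 CPM (1.24 to 2.79). A UMI was found in 24.6% and 15.8% of aerocytes. After thinning to 1000 UMIs it was found in 4.68% and 3.44% of the 1303 and 1657 aerocytes of at least that depth. The second source was the alveolar macrophage of the Cebpa ΔSftpc library, at 22.9 CPM (18.7 to 27.7), while 327 neutrophils had 6 UMIs (4.69 CPM).

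Il18, whose product drives interferon-γ in lymphocytes, was a rare transcript of the control library. Ciliated cells held 51.5% of its 136 UMIs at 20.9 CPM (16.3 to 26.5), and fibroblasts 22.8%, mainly in adventitial fibroblasts at 5.52 CPM. In the Cebpa ΔSftpc library, ciliated cells stood at 27.3 CPM (17.1 to 41.3), with a log2 ratio of 0.38 (-0.38 to 1.09). There, alveolar macrophages held 1814 of 2384 UMIs (76.1%), at 395 CPM (377 to 413), and 61.8% of them had a UMI. The 4 alveolar macrophages of the control library had 2 Il18 UMIs, too few for a ratio. Dendritic cells and classical monocytes of the Cebpa ΔSftpc library were at 31.8 and 32.0 CPM, and neutrophils at 7.03 CPM. AT2 cells had 1 and 4 UMIs (0.110 and 2.66 CPM), and endothelial cells 0.1 and 4.02 CPM beside the Chil3 values above. The mesothelial level of 121 CPM (12 UMIs) in 14 cells of the control and 15.3 CPM (1 UMI) in 10 cells of the Cebpa ΔSftpc library rests on very few cells.

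Il33, the nuclear alarmin of barrier cells, was in AT2 cells at 184 CPM (175 to 193; 1681 UMIs) in 454 control cells. It was at 198 CPM (176 to 222; 298 UMIs) in 204 Cebpa ΔSftpc cells. The log2 ratio was 0.11 (-0.08 to 0.29), so the level per UMI in AT2 cells was not detectably different. A UMI was found in 79.5% and 31.9% of AT2 cells at their unequal depths. After 1 random thinning to 1000 UMIs the shares were 12.7% (9.74 to 16.1) and 12.5% (7.91 to 18.5). Cells under 1000 UMIs were left out at that depth, which kept 450 of 454 and 168 of 204 cells. Thinning to 500 UMIs, which kept all 454 and 204 cells, gave 7.71% (5.43 to 10.6) and 3.92% (1.71 to 7.58). The means over all possible draws were 14.9% and 12.8% at 1000 UMIs and 8.04% and 5.92% at 500 UMIs, lower in the Cebpa ΔSftpc library at both depths. In the Cebpa ΔSftpc library 48 of the 298 UMIs came from 1 cell.

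Adventitial fibroblasts, which sit around vessels and airways, had 190 CPM (177 to 204) and 191 CPM (173 to 211) and a log2 ratio of 0.01 (-0.17 to 0.18). Alveolar fibroblasts, in contrast, were at 3.71 CPM (1.60 to 7.30) and 8.25 CPM (3.03 to 18.0), and ductal myofibroblasts had 0 and 7 UMIs. Venous endothelium was at 46.2 and 47.8 CPM (log2 ratio 0.05, -0.55 to 0.64). General capillary cells and aerocytes were at 1.51 to 3 CPM. Lymphatic endothelium had 51 UMIs in 75 control cells (139 CPM, 103 to 183) and 2 UMIs in 23 Cebpa ΔSftpc cells (14.4 CPM, 1.74 to 51.9). Its log2 ratio was -3.27 (-6.36 to -1.34) as counted and -2.69 with the 2 UMIs raised to the floor of 3. The endothelial cells outside the named subtypes were at 12.9 and 4.11 CPM (-1.65, -2.23 to -1.09), and which endothelial cells that group holds in each library was not resolved.

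The lower whole-library level of Il33 stood beside levels in AT2 cells and adventitial fibroblasts that differed by less than counting error. AT2 cells held 13.3% of all UMIs in the control and 2.33% in the Cebpa ΔSftpc library, and their share of Il33 UMIs was 57.2% and 30.9%. Fibroblasts held 29.5% and 45.3% of Il33 UMIs.

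**Figure D4:**
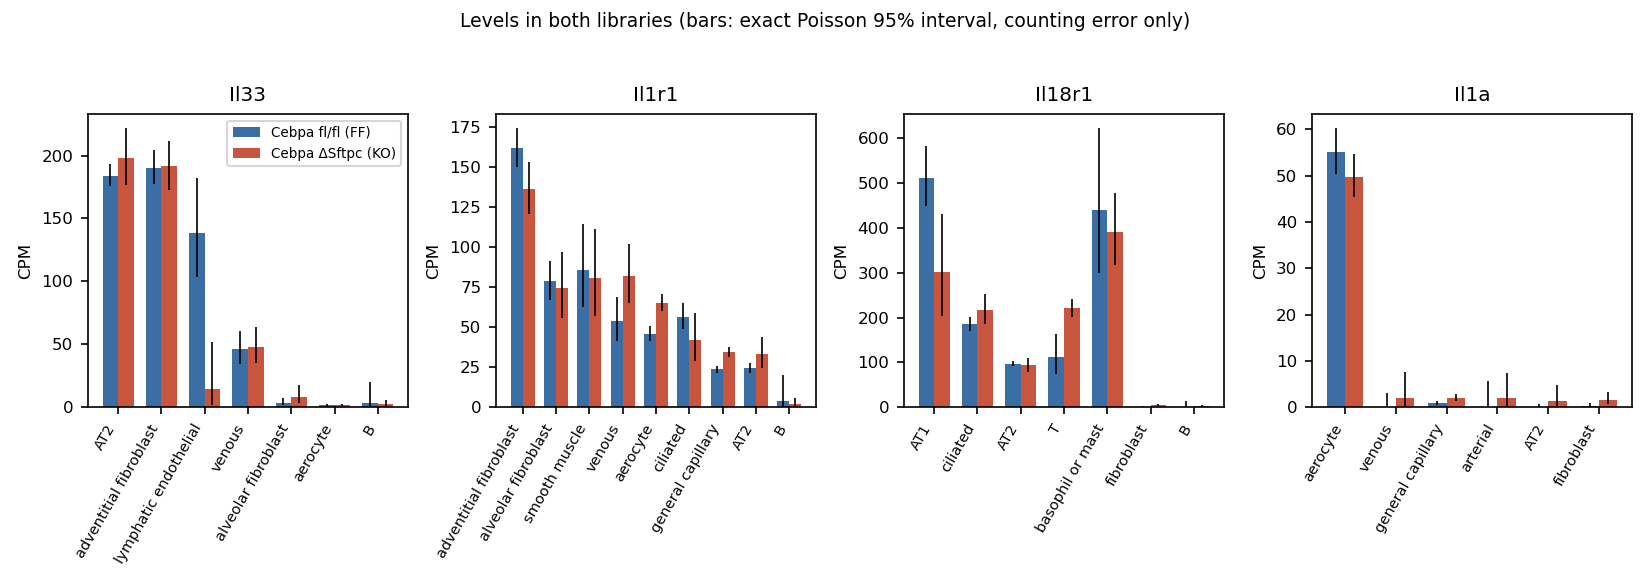
Level (CPM, vertical axes) of Il33, Il1r1, Il18r1 and Il1a in types measured in both libraries, Cebpa fl/fl in blue and Cebpa ΔSftpc in red. Bars show the level and lines its exact Poisson 95% interval. Il33 in AT2 cells (184 and 198 CPM) and adventitial fibroblasts (190 and 191 CPM) differs by less than counting error, while Il1r1 in aerocytes is 45.8 and 65.5 CPM.

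Il1rn, the natural antagonist of IL-1α and IL-1β, had 3 UMIs in all control cells. In the Cebpa ΔSftpc library, alveolar macrophages held 693 of 1326 UMIs (52.3%) at 151 CPM (140 to 162), and neutrophils 228 UMIs (17.2%) at 178 CPM (156 to 203). These intervals overlap, which alone does not decide the order of the pair, and the difference between them was not tested. Nonclassical monocytes followed at 36.5 CPM (27.2 to 48.0) and classical monocytes at 18.4 CPM (12.1 to 26.8; 27 UMIs, 10 of them in 1 cell). The neutrophil gene Retnlg stood at 398 and 88.6 CPM in these monocytes, and its part in these levels was not tested. The 10 types outside the leukocytes were at 0 to 6.39 CPM, which is not read as expression by them, and its origin was not tested. In neutrophils 38.2% of cells had UMIs of both Il1b and Il1rn, and in alveolar macrophages 38.4% had both Il18 and Il1rn. Since 98.5% of these neutrophils had an Il1b UMI, the first of these shares was nearly set by the share with Il1rn. Only 3 neutrophils and 4 alveolar macrophages were in the control library, with 0 Il1rn UMIs each.

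Il1r1, the signalling receptor for both forms of IL-1, was highest in stromal cells, while endothelial cells held 41.4% and 63.3% of its UMIs. Adventitial fibroblasts were highest, at 162 CPM (150 to 175; 676 UMIs) in the control and 136 CPM (121 to 153; 278 UMIs) in the Cebpa ΔSftpc library. Smooth muscle was at 86.0 and 80.8 CPM, alveolar fibroblasts at 78.8 and 74.3 CPM and ductal myofibroblasts at 53.6 and 52.1 CPM, and the intervals of the first 2 of these overlap. Ciliated cells stood at 56.5 CPM (48.8 to 65.2) and 42.2 CPM (29.2 to 58.9). Leukocyte types of the Cebpa ΔSftpc library were at 13.7 CPM or lower, with 3 UMIs in 327 neutrophils (2.34 CPM), 4 in 299 B cells (2.26 CPM) and 1 in 165 classical monocytes.

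Between the libraries, Il1r1 had ratios of opposite sign in endothelium and fibroblasts. In endothelial cells it was at 30.8 CPM (29.1 to 32.6; 1232 UMIs) and 46.3 CPM (44.0 to 48.6; 1543 UMIs) with a log2 ratio of 0.59 (0.48 to 0.69). The ratio was 0.52 (0.33 to 0.70) in aerocytes (45.8 and 65.5 CPM), 0.54 (0.35 to 0.72) in general capillary cells (23.7 and 34.4 CPM) and 0.61 (0.11 to 1.11) in venous cells (53.9 and 82.1 CPM). In arterial cells it was 0.31 (-0.54 to 1.20), and in AT2 cells (24.3 and 33.3 CPM) 0.45 (-0.02 to 0.90), both with intervals that include 0. In fibroblasts as a whole the ratio was -0.21 (-0.37 to -0.05) and in adventitial fibroblasts -0.25 (-0.46 to -0.05), whereas in alveolar fibroblasts it was -0.08 (-0.55 to 0.36). None of these was past 2-fold, and each compares 1 library with 1 other. With cells of at least 3000 UMIs only, the endothelial ratio was 0.55.

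Il1rap, the co-receptor shared by the IL-1 and IL-33 receptors, was found in leukocytes, endothelium and stroma. Neutrophils of the Cebpa ΔSftpc library were highest, at 155 CPM (134 to 178; 198 UMIs). Basophils or mast cells were at 70.8 CPM (5 UMIs) and 74.1 CPM (18 UMIs), and ductal myofibroblasts at 67.6 CPM (58 UMIs) and 80.6 CPM (51 UMIs). Aerocytes stood at 30.9 and 30.2 CPM (log2 ratio -0.03, -0.28 to 0.22) above general capillary cells at 8.36 and 10.5 CPM. Fibroblasts were at 32.5 and 35.4 CPM (0.12, -0.17 to 0.41) and pericytes at 26 and 44.7 CPM (0.78, -0.68 to 2.04, from 24 and 7 UMIs). AT2 cells were low, at 3.40 and 5.32 CPM. UMIs of both Il1r1 and Il1rap were found in 9.70% of fibroblasts of the control and 5.10% of the shallower fibroblasts of the Cebpa ΔSftpc library. These shares were not compared with those of 2 genes found independently.

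Il1r2, the decoy that takes up IL-1 without signalling, had 33 control UMIs, of which 25 were in fibroblasts. Neutrophils of the Cebpa ΔSftpc library held 789 of 1657 UMIs at 616 CPM (574 to 661), and 71.6% of them had a UMI. Of these 327 neutrophils, 233 (71.3%) had UMIs of both Il1b and Il1r2, and 1 had Il1r2 alone. Since 322 of the 327 had an Il1b UMI, this overlap was nearly set by the share with Il1r2. Nonclassical monocytes stood at 81.7 CPM (67.4 to 98.1), dendritic cells at 38.5 CPM (28.2 to 51.3) and classical monocytes at 24.5 CPM (17.2 to 34.0), beside Retnlg at 398, 78.7 and 88.6 CPM, whose part in these levels was not tested. The 10 types outside the leukocytes had 0 to 12.8 CPM. Adventitial fibroblasts had 5.52 CPM (23 UMIs) in the control library, where neutrophil genes were near 0 (S100a8 0.720 CPM), and 10.8 CPM (22 UMIs) in the Cebpa ΔSftpc library, where S100a8 was at 405 CPM.

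Il1rl1, the receptor for IL-33, was found mainly in a few rare leukocytes. Basophils or mast cells had 439 CPM (298 to 623; 31 UMIs, 11 of them in 1 cell) in 11 control cells. They had 333 CPM (265 to 414; 81 UMIs) in 47 Cebpa ΔSftpc cells, and the mix of the 2 kinds of cell may differ between the libraries. The 11 cells placed as group 2 innate lymphoid cells (ILC2), all of the Cebpa ΔSftpc library, had 63 UMIs at 865 CPM (664 to 1106), and every cell had a UMI. That type rests on Gata3, Arg1 and Rnf128, and its defining cytokines Il5 and Il13 had 0 UMIs in these cells. Dendritic cells of the Cebpa ΔSftpc library had 61 UMIs, 51 CPM (39 to 65.6). All 61 were in the 25 of 78 cells in which Cd209a led or tied among the subtype markers, and none was in the 35 cells led by Xcr1 and Clec9a or the 18 led by Ccr7 and Fscn1, a division made after the values were seen. T cells were at 8.62 CPM (2 UMIs) and 8.12 CPM (18 UMIs). In the 7836 and 7220 endothelial cells there were 0 and 22 UMIs. AT2 cells and fibroblasts, the main Il33 sources, had 0 CPM in the control and 0.665 and 0.685 CPM in the Cebpa ΔSftpc library.

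Il18r1, the ligand-binding chain for IL-18, was an epithelial transcript in the control library. AT1 cells, the thin cells of gas exchange, were at 512 CPM (448 to 583; 230 UMIs over 97 cells), ciliated cells at 185 CPM (171 to 200) and AT2 cells at 97.3 CPM (91.0 to 104), which held 10.9%, 29.4% and 42.2% of its UMIs. The 24 Cebpa ΔSftpc AT1 cells were at 301 CPM (203 to 430; 30 UMIs), with a log2 ratio of -0.77 (-1.37 to -0.21). Ciliated cells were at 217 CPM (186 to 252) and AT2 cells at 93.2 CPM (78.4 to 110), with log2 ratios of 0.23 (-0.02 to 0.47) and -0.06 (-0.33 to 0.20). Of the 30 UMIs, 10 were in 1 cell, and under a stricter gate the AT1 ratio was -0.42 (-1.25 to 0.32). In 1 random thinning to 1000 UMIs, 25.0% and 22.7% of the 68 and 22 AT1 cells of at least that depth had a UMI. In 1 to 500 UMIs, 17.5% and 4.17% (0.105 to 21.1) of all 97 and 24 cells did. The means over all possible draws were 28.1% and 18.8% at 1000 UMIs and 14.3% and 11.5% at 500 UMIs. Mesothelial cells were at 485 CPM (358 to 643; 48 UMIs in 14 cells) and 230 CPM (129 to 379; 15 UMIs in 10 cells).

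Among leukocytes, Il18r1 was at 439 and 391 CPM in basophils or mast cells, at 262 CPM (212 to 320) in NK cells of the Cebpa ΔSftpc library, and at 112 CPM (73.2 to 164; 28 cells) and 221 CPM (202 to 242; 310 cells) in T cells. The T-cell log2 ratio was 0.98 (0.41 to 1.61), and which T cells the 28 were was not resolved. B cells had 0 and 4 UMIs. Of the basophils or mast cells of the Cebpa ΔSftpc library, 21 of 47 (44.7%) had UMIs of both Il1rl1 and Il18r1, as had 5 of 11 of the control library. In the former, 7 cells had Il1rl1 alone and 11 had Il18r1 alone. Whether this overlap exceeds that of 2 genes found independently was not tested. Endothelial cells were at 2.53 and 6.57 CPM (log2 ratio 1.38, 1.03 to 1.73) and fibroblasts at 1.11 and 3.88 CPM (10 and 17 UMIs, 6 of the latter in 1 cell). These low levels stood beside the higher S100a8 of the same cells and beside T cells that numbered 28 and 310, and the part of leukocyte RNA in them was not tested. T cells held 29.6% of the Cebpa ΔSftpc UMIs, ciliated cells 10.6% and AT2 cells 8.44%.

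**Figure D5:**
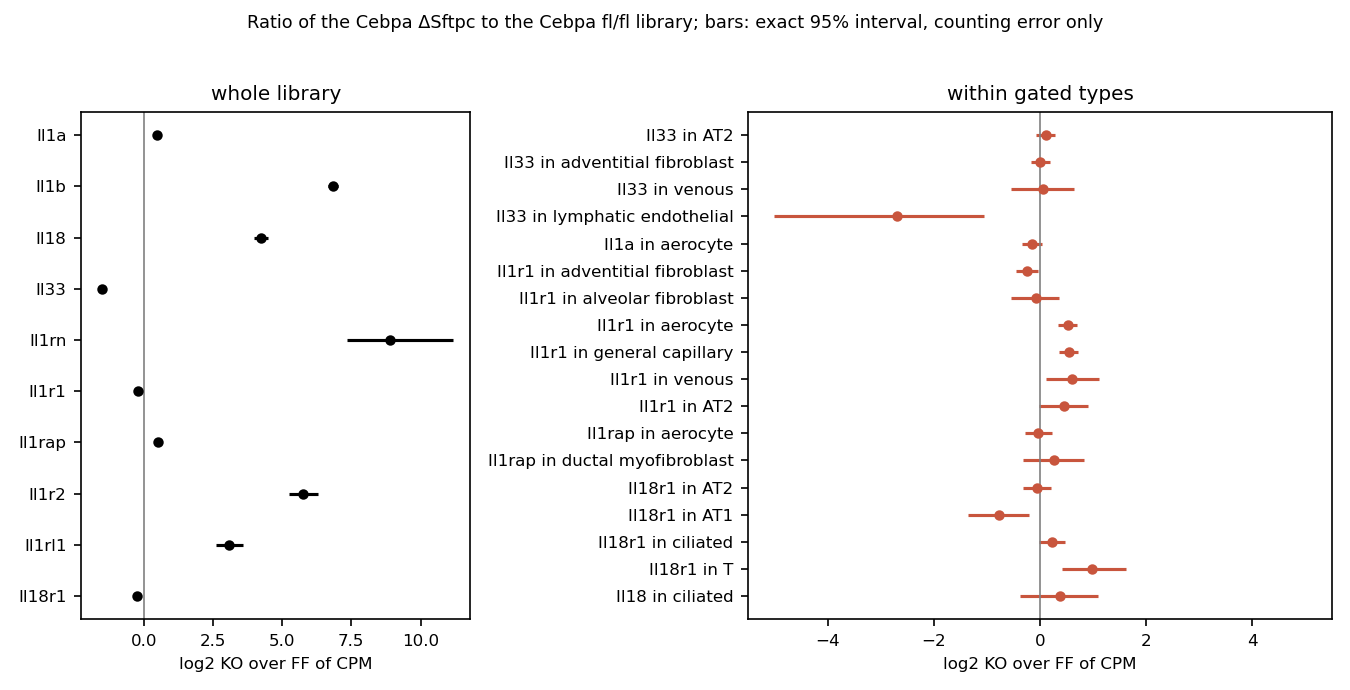
Log2 ratio of Cebpa ΔSftpc (KO) over Cebpa fl/fl (FF) CPM, over the whole library (left) and within types (right), with exact 95% intervals of counting error. Il33 lies at -1.52 over the whole library but at 0.11 in AT2 cells and 0.01 in adventitial fibroblasts, and Il1r1 lies above 0 in the 3 endothelial subtypes shown and below 0 in adventitial fibroblasts. Low counts were raised to 3, which touches Il33 in lymphatic endothelium.

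The other genes of the pathway were counted from lists by role. Of 14 other ligands and receptors 10 were in the files and 5 had enough UMIs, and 2 were past 2-fold higher over the whole library, Il1f9 and Il18rap, with a median log2 ratio of 0.45. Over all genes tested the share was 7.84%. Sigirr, an inhibitory receptor of the family, and Il18bp, which binds IL-18 in solution, differed by less than counting error in endothelium, at 34.7 and 33.5 CPM and at 15.9 and 15.2 CPM. Il1f9 and Il18rap, and Nlrp3, Cxcl2, Tnfaip3 and Il13 below, were picked for description after their values were seen. Il1f9, which encodes an IL-36 ligand, was at 304 CPM (274 to 336) in neutrophils of the Cebpa ΔSftpc library. Il18rap, the signalling partner of Il18r1, was at 467 and 461 CPM in basophils or mast cells, at 380 CPM (319 to 449) in NK cells and at 64.6 and 59.1 CPM in T cells. In the epithelial types with Il18r1 it was low, with 1 UMI in AT1 cells of each library, 1 and 0 UMIs in ciliated cells, and 2.85 and 9.32 CPM in AT2 cells.

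Of the 9 genes of precursor processing 6 were higher over the whole library (Casp1, Nlrp3, Nlrp1b, Nlrc4, Aim2 and Pycard), with a median log2 ratio of 1.36, and 2 of 7 in endothelium (Nlrp3 and Aim2), with a median of 0.05. Over all genes tested 7.84% were higher over the whole library and 4.37% in endothelium. The part of the shift in leukocyte share in the whole-library count was not tested. The endothelial counts of 1 and 240 UMIs of Nlrp3 and 44 and 124 UMIs of Aim2 stood beside the S100a8 levels given above, whose part was not tested. The most abundant pair, Casp8 and Gsdmd, the latter a pore former of inflammatory cell death, were at 52.9 and 69.2 CPM and at 38.0 and 40.8 CPM over the whole libraries. Nlrp3, the sensor of the best-known inflammasome, was at 628 CPM in neutrophils and 675 CPM in basophils or mast cells of the Cebpa ΔSftpc library, and at 439 CPM in the latter in the control library. Of the 11 receptor-proximal signalling genes 0 were past 2-fold in either direction over the whole library, in endothelium or in fibroblasts. The shares of all genes tested that were higher and lower were 7.84% and 5.66%, 4.37% and 0.24%, and 1.37% and 0.0952%. With shares this low, 0 of 11 is not read as a trait of this list. Tab2 and Irak1, adaptor and kinase below the receptors, had log2 ratios of 0.34 and 0.21 over the whole library and of -0.03 and 0.07 in endothelium.

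Of the 10 response genes, which IL-1 and other signals raise through NF-κB, 5 were higher over the whole library (Nfkbiz, Tnfaip3, Cxcl2, Il6 and Zc3h12a; median 1.21), 3 in endothelium (Tnfaip3, Cxcl2 and Il6; median 0.50) and 1 in fibroblasts (Cxcl2; median 0.03). The shares over all genes tested were 7.84%, 4.37% and 1.37%. Here too the part of the leukocyte shift in the whole-library count was not tested. Cxcl2 is itself abundant in neutrophils, where it was among the 10 leading genes, and its endothelial levels of 0.2 and 29 CPM stood beside S100a8 at 2.08 and 266 CPM, whose part was not tested. Tnfaip3, a brake on NF-κB, was at 16.3 and 41.8 CPM in endothelium (log2 ratio 1.36, 1.23 to 1.5) and at 10.1 and 26 CPM in fibroblasts. These levels, and the Il6 count in endothelium, stood beside S100a8 at 266 CPM in endothelium and 318 CPM in fibroblasts of the Cebpa ΔSftpc library. The part of leukocyte RNA in them was not tested. Nfkbia and Icam1, the most abundant pair, were at 578 and 590 CPM and at 241 and 289 CPM in endothelium. Of the 4 outputs of IL-33 and IL-18 target cells 3 had enough UMIs, and Il13 and Ifng were higher with 11 and 90 UMIs and 11 and 159 UMIs. Il13 was at 127 and 255 CPM in basophils or mast cells, and Ifng at 85.4 CPM in NK cells of the Cebpa ΔSftpc library. Areg, a growth factor for epithelium, had a log2 ratio of -0.75 (-0.86 to -0.63) over the whole library, with ciliated cells at 204 and 304 CPM. In fibroblasts its ratio was 3.25 (2.29 to 4.34) from 11 and 51 UMIs, beside the S100a8 level given above, whose part was not tested.

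The genes nearest to 8 of the 10 members were ordered by Pearson's r of log2(CPM + 1) over 24 points, 12 types in each of the libraries. The points share libraries and depth, so r is a description without a p. For Il1b these were Ccl6 (0.91), Ear2 and Chil3, and for Il1rn Ear1 (0.93), Trem1 and Sh2d1b1. Of these genes, Ear1, Ear2 and Chil3 were leading genes of alveolar macrophages of the Cebpa ΔSftpc library, a type outside the 12. Il33 lay nearest to Zmat4 (0.90), Phf24 and Tspan11, and Il18 to Csf2ra (0.84), Naaa and Bco2. Among the receptors, Il18r1 lay nearest to Il17re (0.92), Eya2 and Galnt3, Il1rl1 to Atp8b4 (0.89), Cxcr3 and Ccr2, and Il1r1 to P4htm (0.82), Stbd1 and Fam13a. Il1r2 lay nearest to Marco (0.81), Gm15564 and F7. The 12 types do not include neutrophils, dendritic cells, alveolar macrophages, basophils or mast cells or ILC2, which had under 20 cells in the control library, so for Il1b, Il1rn, Il18, Il1r2 and Il1rl1 this order describes low levels. For the same reason the highest of the 12 types by the mean of both libraries was not a main source for Il1b (B cells), Il18, Il1rn and Il1rl1 (interstitial macrophages) or Il1r2 (pericytes).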

How the data were processed

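Droplet 3′ scRNA-Seq was made from lung cells of both genotypes. The authors aligned the reads to mm10 with Cell Ranger (6.1.1 per the labels, 5.0.0 per the file headers) and the deposited values are whole UMI counts of each gene in each cell, not normalized. The labels speak of sorted live cells and the methods of whole-lung suspensions. The deposited files held 11721 and 13373 barcodes with 69200420 and 64697396 UMIs. The filter of the methods (at least 200 genes, at most 20% mitochondrial counts) left 11487 and 13238.

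A cell was placed in a type with at least 2 markers and 3 UMIs of them, at least 0.1 of the type's median marker level and 2 times the level of any other type that also had 2 markers and 3 UMIs. The plan was to set this lead on UMIs, and marker levels scaled by type were used instead. The markers Ace, Vcan, Il5 and Il13 were left out because another type held more of them (4 markers). No doublet caller was run, and cells with markers of several types were kept apart. Counts were summed per type and library and divided by all UMIs of these cells (CPM). Ratios had counts under 3 raised to 3 and an exact conditional interval, levels an exact Poisson and shares a Clopper-Pearson interval (95%). Ratios within a type were taken with at least 20 cells in each library. The ratio script was tested on simulated data.

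The members, marker lists and pathway lists were chosen with earlier results of these data known. Named genes were all members, the pair of highest summed CPM in each pathway role and the 3 genes nearest each member (for Il1a and Il1rap these are not reported here), and others are said to be chosen after their values were seen. Alternatives changed the cell filter, depth, gate, denominator, floor and thinning, and means over all draws of the thinning were added after seeing the data. Cells with fewer UMIs than the thinning depth were left out of the thinned shares. Python 3.11.15, NumPy 2.4.6, pandas 2.3.3, SciPy 1.17.1 and Matplotlib 3.10.9 were used. Positions are those of GENCODE for GRCm38 and windows those of RefSeq for GRCm38.p6, in which 10 of 10 members had a match.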

Additional observations from a re-analysis of the deposited data

Results flagged for a closer look

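Il1r1 moved in opposite directions in 2 types, with a log2 ratio of Cebpa ΔSftpc over Cebpa fl/fl of 0.61 in venous endothelium and -0.25 in adventitial fibroblasts, and the difference between them was not tested because each genotype had 1 library. Il18r1 likewise had a log2 ratio of 2.30 in adventitial fibroblasts, from 5 and 12 UMIs, and -0.77 in AT1 cells, from 230 and 30 UMIs, and this difference was not tested either. Of these Cebpa ΔSftpc UMIs, 6 of the 12 and 10 of the 30 were each in 1 cell, and the adventitial levels of 1.20 and 5.89 CPM stood beside S100a8 at 0.720 and 405 CPM.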

How the results depend on the processing

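No paired analysis was possible because each genotype had 1 library. No replicate could be left out for the same reason. Without the leukocyte types and the cells of no or several types (a setting added after seeing the data), whole-library log2 ratios were 8.01 for Il1b, 1.38 for Il18, -1.06 for Il33, 5.90 for Il1rn, 0.28 for Il1rap, 3.67 for Il1r2 and -0.97 for Il18r1, and that of Il1r1 was 0.21 in place of -0.19, with the opposite sign, while those of Il1a and Il1rl1 stayed within their intervals. In endothelial cells, which this setting keeps, Il1b had 11 and 2058 UMIs, Il1rn 2 and 78 and Il1rl1 0 and 22. The setting leaves out basophils or mast cells and ILC2, where Il1rl1 was highest. The origin of Il1b and Il1rn UMIs in the types kept was not tested, so their ratios are not read as expression in those types. With only cells of at least 3000 UMIs the whole-library ratio of Il1r1 was -0.28. With 0.5 added to each count the ratio of Il1b in B cells was 6.04, against 3.45 with the floor of 3 and 1.91 with a stricter gate. Of the 20 ratios over the whole library and in 1 type per member (its highest among types with enough cells in both libraries), 20 moved by less than their interval under the other cell filter and with frequent genes left out of the totals, and 19 did at the higher depth and with 0.5 added. The level of 120 CPM of Il1b in B cells was 43.0 CPM under a stricter and 165 CPM under a looser gate, and Il33 in AT2 cells became 241 and 240 CPM when genes frequent among free RNA were left out of the totals. Thinning to 500 in place of 1000 UMIs moved 8 of 20 shares of cells with a UMI out of their interval. Among them were both AT2 shares of Il33 and the Cebpa ΔSftpc AT1 share of Il18r1. A smaller share is built into the lower depth, and cells under 1000 UMIs entered only at 500 UMIs. This count is therefore not read as a dependence on the processing. A stricter gate left 1 lymphatic endothelial cell in the Cebpa ΔSftpc library, so Il33 has no ratio there. The main limits are the leukocyte types of the Cebpa fl/fl library, most with under 20 cells, and leukocyte transcripts counted in other types of the Cebpa ΔSftpc library.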
